A study of Mus musculus with 12 samples.

Results

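The histone genes of the mouse prostate cancer line Myc-CaP were examined in polyadenylated RNA of cells treated with oxaliplatin, IFNγ or both. Members were chosen by symbol: every gene whose symbol starts with Hist1h, Hist2h, Hist3h or Hist4h (hereafter the Hist genes), and the 6 variant genes H1f0, H2afx, H2afz, H2afj, H3f3a and H3f3b. They came to 76 of the 55216 genes in the count table, 70 Hist genes and 6 variants.

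Myc-CaP is one established line, derived from a prostate tumor of a male FVB/NJ mouse with a MYC transgene under a probasin promoter, so the libraries are samples of 1 line and not of several tumors. All cells were collected at 48 h. The 6 groups, with 2 libraries each, were untreated cells (Ctrl), IFNγ at 200 pg (IFN200), IFNγ at 2000 pg (IFN2000), oxaliplatin at 2 µM (Oxali), and oxaliplatin at 2 µM with IFNγ at 200 pg (Combo200) or 2000 pg (Combo2000). The labels give the IFNγ amounts without a volume, and the authors state the RNA-seq doses per mL. Oxaliplatin is a platinum drug that crosslinks DNA, and IFNγ is a cytokine of the immune response. Nothing in the sources states whether the 2 libraries of a group came from separate cultures, so each p-value measures only the spread between these libraries.

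Groups were taken from the sample titles, because for the 3 groups given 1 agent the agent field names a different treatment from the title. Gbp2, an IFNγ-induced GTPase, stood at 0.912 and 1.00 CPM (counts scaled to the library total) in the libraries titled Ctrl, 30.6 and 30.8 in those titled IFN2000, and 2.86 and 3.36 in those titled Oxali. Cdkn1a, a p53 target, was at 48.1 to 53.6 CPM in the 6 libraries titled with oxaliplatin and at 24.0 to 30.3 CPM in the other 6. Total counts ran from 18749975 to 25931516 per library, so that 3 counts in 1 library equal 0.111 to 0.167 CPM.

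Histones package DNA into nucleosomes. Replication-dependent histone genes lie in clusters, are transcribed mainly in S phase, and give mRNAs that normally end just past a conserved stem-loop, bound by Slbp, with no poly(A) tail. Most variant histone genes lie outside the clusters, are transcribed through the cell cycle and give ordinary polyadenylated mRNAs, though H2afx also carries a stem-loop. Poly(A) selection therefore favors the second kind.

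Of the 70 Hist genes, 6 encode linker histone H1, 20 H2A, 19 H2B, 12 H3 and 13 H4, and 3 are annotated as pseudogenes. By GENCODE M21 on GRCm38, 56 lie on chromosome 13, 10 on chromosome 3, 3 on chromosome 11 and 1 on chromosome 6. A stem-loop with a 6-base stem and a 4-base loop of the histone consensus was found in annotated transcripts of 46 Hist genes (65.7%), against 66 of all 55450 genes (0.119%). Of the variants, 1 carried it, H2afx. The stem-loops of the measured members are shown because they mark where a replication-dependent mRNA would normally end. Each is given 5′ to 3′ with the stem and loop in capitals and up to 5 flanking bases in lower case, all from the 3′ untranslated part of the transcript.
Hist1h1c: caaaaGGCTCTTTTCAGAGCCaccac
Hist1h1e: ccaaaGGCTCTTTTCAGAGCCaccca
Hist3h2a: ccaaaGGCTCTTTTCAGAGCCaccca
Hist1h2be: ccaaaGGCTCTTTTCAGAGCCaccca
Hist1h2bh: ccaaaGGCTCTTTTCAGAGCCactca
Hist1h3g: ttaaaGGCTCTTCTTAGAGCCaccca
Hist1h4i: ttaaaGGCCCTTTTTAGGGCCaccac
H2afx: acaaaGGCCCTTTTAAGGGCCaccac
The H1, H2A and H2B members above share 1 core, and those of Hist1h3g, Hist1h4i and H2afx differ from it and from each other. The annotated transcript runs on past the stem-loop by 840 bases in Hist1h1c (chr13:23738808-23740367, + strand), 1153 in Hist1h1e (chr13:23620629-23622558, - strand), 1643 in Hist3h2a (chr11:58954685-58956830, + strand), 1861 in Hist1h2be (chr13:23583670-23621124, - strand) and 1214 in Hist1h2bh (chr13:23541714-23543392, - strand). It runs on by 330 bases in Hist1h4i (chr13:22040636-22041362, - strand), 822 in H2afx (chr9:44334694-44336077, + strand) and only 47 in Hist1h3g (chr13:23535422-23535951, + strand). No stem-loop was found in the annotated transcripts of Hist1h2bc (chr13:23684199-23692908, + strand) or Hist2h2be (chr3:96221119-96223738, + strand).

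Promoters were read from RefSeq on GRCm38.p6, from 250 bases before to 50 bases after the start. Motifs were searched only in the 250 bases before the start. There were 62 promoters of Hist genes and 5 of variants, for 66 genes in all, as a gene can have more than 1. The octamer ATTTGCAT, a motif read by Oct1 in H2B promoters, was in 14 of the 62 Hist promoters (22.6%) and in 1.60% of all 32851 promoters, searched on both strands. All 14 were H2A or H2B promoters, 7 of 17 in each family (41.2%). Some of these genes lie head to head, as Hist1h2ae (chr13:23570517-23571220, - strand) and Hist1h2bg (chr13:23571396-23572013, + strand) do. The same octamer can then be counted in both promoters, so the 14 are not separate elements in every case. The CCAAT box (letters CCAAT) was in 82.3% of Hist promoters and 33.8% of all, and the TATA box (letters TATAAA) in 46.8% and 12.4%. Of the 5 variant promoters, 4 had a CCAAT box (80%), 1 the octamer and 1 the TATA box (20% each). Among the Hist families, the CCAAT share ran from 25% in H4 to 100% in H1, H2A and H2B. Matches of different motifs could overlap, and a match is a description of the letters only. The octamer window of Hist1h2be, the one H2B member of these with enough reads to test, is given with those of 2 unmeasured H2B genes for comparison, 5′ to 3′ on the strand of the gene with the octamer in capitals.
Hist1h2be, chr13:23586019-23586048, - strand: agtaagacttaATTTGCATaagactgccta
Hist1h2bg, chr13:23571330-23571359, + strand: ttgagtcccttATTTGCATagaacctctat
Hist1h2bk, chr13:22035780-22035809, + strand: catttcactttATTTGCATacgaagttcta
The octamer lay 67, 59 and 30 bases before the RefSeq start in these windows, respectively. For Hist1h2be that start lies inside the GENCODE M21 model (chr13:23583670-23621124, - strand), which begins further upstream.

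Reads on Hist genes were few. The 70 Hist genes together drew 152 to 431 counts per library, 0.635% to 1.29% of the counts on all histone members, while the 6 variants drew 21389 to 43085. The filter on low counts, which asked for about 10 counts (0.436 CPM) in at least 2 libraries, left 13177 genes to test. All 6 variants and 9 Hist genes passed it (Hist1h1c, Hist1h1e, Hist3h2a, Hist1h2bc, Hist1h2be, Hist1h2bh, Hist2h2be, Hist1h3g and Hist1h4i). Of the 61 that did not, 17 had no count in any library, 16 had 1 to 11 counts in all 12 libraries together and 28 had 12 or more. The highest of these was Hist1h4d, an H4 gene, with 63 counts in all.

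Which Hist genes were read differed with the annotated end of the transcript. Transcript ends and lengths here and below are from GENCODE M21, while the authors counted reads over GENCODE vM12 models, which were not examined. Of the 23 Hist genes whose annotation runs more than 100 bases past the stem-loop, 6 passed the filter and the median total was 39 counts. Of the 23 that end within 100 bases of it, 1 passed (Hist1h3g) and the median was 7 counts. Of the 24 with no stem-loop found, 2 passed (Hist2h2be and Hist1h2bc) and the median was 4 counts. The longer models also have more bases to collect reads: their median length was 1249 bases against 485 and 402, and the median count per kilobase was 38.4, 15.2 and 9.17. Shared sequence differed too. The median share of 50-base stretches also found in another gene was 24.6%, 59.4% and 75.6% in the 3 classes, and how reads that match several genes were counted is not given in the sources used here. Of the 34 Hist genes with more than 50% shared, 15 had no count, against 2 of the other 36.

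**Figure D1:**
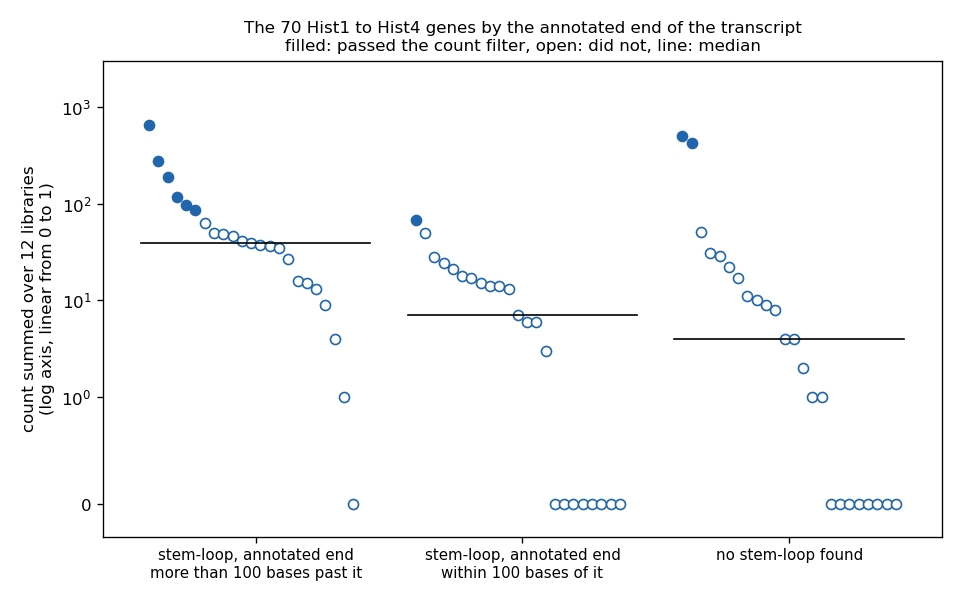
Each point is 1 of the 70 Hist genes, by the annotated end of its transcript (x axis, 3 classes) and its count summed over the 12 libraries (y axis, logarithmic above 1 and linear from 0 to 1); filled points passed the filter and lines are medians. The class that runs on past the stem-loop has a median of 39 counts and 6 filled points, and the other classes have medians of 7 and 4 counts.

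Per length, variants and Hist genes stood far apart. Mean levels over the 12 libraries, in CPM per kilobase of the longest annotated transcript (RPKM), were 434 for H2afz, 272 for H3f3b, 41.1 for H2afx, 38.8 for H1f0, 21.8 for H3f3a and 7.88 for H2afj. The highest Hist gene was Hist1h1c at 1.59 RPKM, followed by Hist1h4i at 1.43 and Hist1h2bc at 1.37, and the lowest that passed was Hist1h1e at 0.167. With the union of all exons as the length, H2afz came to 261, H3f3b to 230 and H3f3a to 17.6 RPKM, and Hist1h2be moved from 0.175 to 0.0984 RPKM, below Hist1h1e. H2afx and H1f0 overlapped in their libraries (26.6 to 57.4 and 18.8 to 61.5 RPKM).

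Oxaliplatin was compared with its absence at each IFNγ amount: Oxali against Ctrl, Combo200 against IFN200 and Combo2000 against IFN2000. These 3 comparisons share no library. All changes below are edgeR quasi-likelihood log2 fold changes with their standard errors (SE), and a gene was called when its p-value, adjusted by Benjamini-Hochberg over all 13177 genes, was under 0.05. In bulk RNA, fewer cells making a transcript and less of it per cell cannot be told apart.

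With oxaliplatin alone, 5 of the 6 variants fell and H2afx rose, and in all 3 comparisons each called Hist gene fell. In Oxali against Ctrl, 12 of the 15 tested members were called lower (5 variants and 7 Hist genes) and 1 higher, where 32.8% of all tested genes were called lower and 34.8% higher. In Combo200 against IFN200, 9 members were called lower (4 variants, 5 Hist genes) and 1 higher, with 33.5% and 36.5% of all genes. In Combo2000 against IFN2000, 11 were called lower (5 variants, 6 Hist genes) and 1 higher, with 33.8% and 38.5% of all genes. The median log2 fold change of the 15 members was -0.81, -0.71 and -0.99 in the 3 comparisons, and that of all tested genes was 0.02, 0.02 and 0.03. In each comparison the 1 member called higher was H2afx. Called lower in all 3 comparisons were H1f0, H2afz, H3f3a, H3f3b, Hist1h1c, Hist1h2bc, Hist1h2bh, Hist1h4i and Hist2h2be, 9 of the 15 against 26.9% of all tested genes, and H2afx was the 1 called higher in all 3, against 29.6%. The members were chosen by symbol with earlier results of these data known, and no test was made of the list.

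The counts over Hist genes are limited by the filter. Hist1h2be, Hist1h2bh and Hist1h3g had 2 or more libraries over the cutoff only without oxaliplatin, so they entered the test through the groups where they are high and had to be lower with oxaliplatin. Hist1h1e passed with 1 library of each kind. The other 5 Hist genes and all 6 variants had at least 2 libraries over it on both sides.

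**Figure D2:**
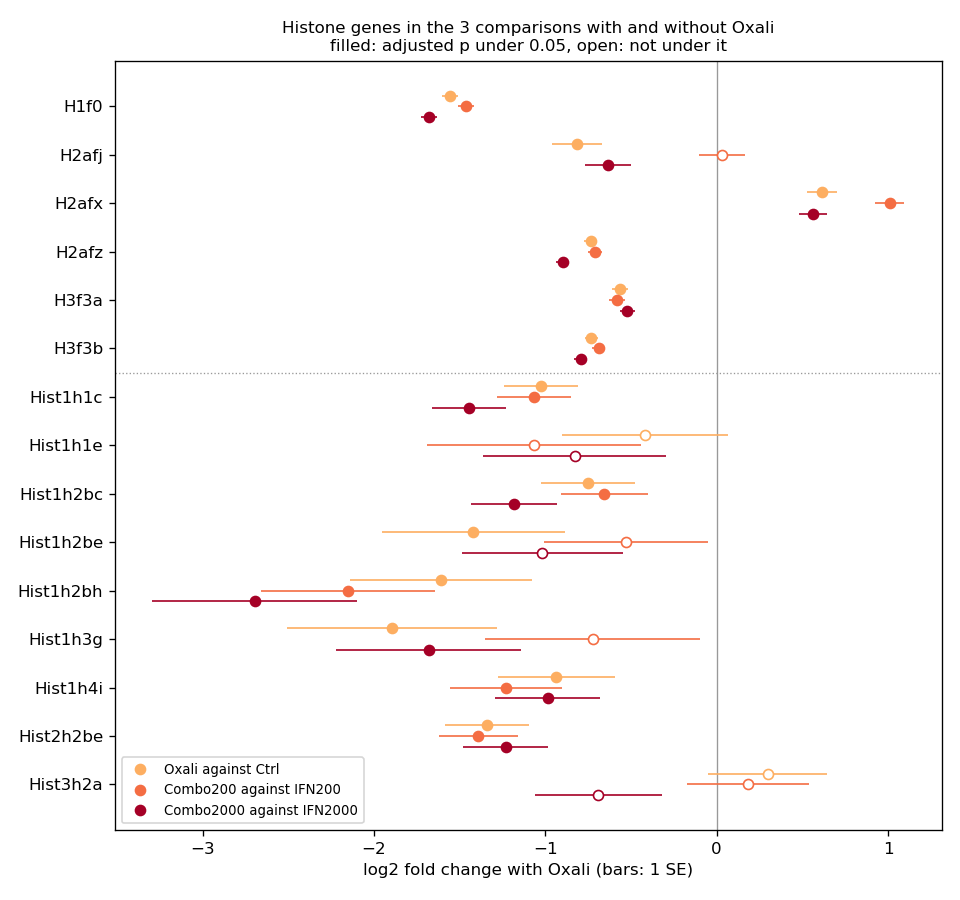
Log2 fold change with oxaliplatin (x axis, bars 1 SE) of the 6 variants above the dotted line and the 9 tested Hist genes below it, in the 3 comparisons by color; filled points had an adjusted p under 0.05. H2afx lies to the right of 0 in all 3 comparisons, H1f0 lies between -1.68 and -1.46, and the open points are H2afj in Combo200 against IFN200 and the calls that Hist1h1e, Hist1h2be, Hist1h3g and Hist3h2a missed.

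Linker histones come first. H1f0, the replacement linker histone that accumulates in cells that have stopped dividing, was at 119 and 120 CPM in Ctrl, 110 and 116 for IFN200, 126 and 125 for IFN2000, 38.7 and 42.5 for Oxali, 40.3 and 41.5 for Combo200 and 39.8 and 38.7 for Combo2000. All 6 libraries with oxaliplatin were below all 6 without. Its log2 fold change was -1.56 ± 0.05 (adjusted p = 9.66e-16) in Oxali against Ctrl, -1.46 ± 0.05 (adjusted p = 1.02e-15) in Combo200 against IFN200 and -1.68 ± 0.05 (adjusted p = 1.09e-16) in Combo2000 against IFN2000, a level 2.94-, 2.76- and 3.20-fold lower. These were the largest changes among the variants. An annotated gene, Gm49544, overlaps H1f0 on the other strand, and the counting is not stated to have used strand.

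Hist1h1c encodes a somatic H1 of the chromosome 13 cluster and was the Hist gene with the most counts, 656 in all. It was at 3.73 and 3.55 CPM in Ctrl, 2.78 and 3.49 for IFN200, 3.64 and 3.44 for IFN2000, 2.03 and 1.53 for Oxali, 1.18 and 1.78 for Combo200, and 1.3 and 1.29 for Combo2000. The groups with and without oxaliplatin did not overlap. The log2 fold changes were -1.03 ± 0.21 (adjusted p = 0.000302), -1.07 ± 0.22 (adjusted p = 0.000199) and -1.45 ± 0.21 (adjusted p = 5.43e-06) in the order above. Hist1h1e, another somatic H1, had 85 counts in all and was not called in any of the 3 comparisons. Its levels were 0.265 to 0.557 CPM without oxaliplatin and 0.116 to 0.553 CPM with it, and Oxali replicate 1 was the one library with oxaliplatin above 0.259 CPM. Its log2 fold change in Oxali against Ctrl was -0.42 ± 0.48, and -1.37 ± 0.68 (adjusted p = 0.0935) without Oxali replicate 1. Hist1h1e overlaps Hist1h2be on the same strand, so their reads can be shared.

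Among the H2A members, H2afx stood out by its direction. It encodes H2A.X, the variant that is phosphorylated around DNA breaks. Its levels were 42.8 and 45.7 CPM in Ctrl, 36.8 and 39.3 for IFN200, 45.1 and 47.3 for IFN2000, 76.8 and 58.8 for Oxali, 73.8 and 79.4 for Combo200, and 70.8 and 65.4 for Combo2000. All 6 libraries with oxaliplatin were above all 6 without, the single member of 15 with that pattern, against 31.8% of all tested genes. The log2 fold changes were 0.62 ± 0.09 (adjusted p = 3.73e-06), 1.01 ± 0.08 (adjusted p = 2.17e-09) and 0.56 ± 0.08 (adjusted p = 5.16e-06). Without Oxali replicate 1, the higher library of its pair, the first was 0.41 ± 0.07 (adjusted p = 0.000147). H2afx is also the 1 variant with a stem-loop, and its annotated transcript has a poly(A) signal ATTAAA further on. It is overlapped on the other strand by Gm44335.

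H2afz, which encodes H2A.Z, a variant found at promoters, had the highest level per length. It was at 553 and 545 CPM in Ctrl, 562 and 550 for IFN200, 682 and 632 for IFN2000, 326 and 334 for Oxali, 332 and 348 for Combo200 and 349 and 356 for Combo2000. Libraries with oxaliplatin were all lower than those without, and the IFN2000 pair was the highest. The log2 fold changes were -0.74 ± 0.04 (adjusted p = 3.70e-12), -0.71 ± 0.04 (adjusted p = 5.35e-12) and -0.90 ± 0.04 (adjusted p = 1.08e-13). H2afj, an H2A variant linked to senescent cells, varied more between libraries. It was at 17.5 and 17.6 CPM in Ctrl, 11.8 and 16.8 for IFN200, 16.6 and 20.1 for IFN2000, 11.4 and 8.49 for Oxali, 15.2 and 14.1 for Combo200, and 12.2 and 11.4 for Combo2000. The sets with and without oxaliplatin overlapped through IFN200 replicate 1, which lay below both Combo200 libraries and 1 Combo2000 library. It fell in Oxali against Ctrl (-0.81 ± 0.15, adjusted p = 6.46e-05) and in Combo2000 against IFN2000 (-0.63 ± 0.13, adjusted p = 0.000268), and its log2 fold change in Combo200 against IFN200 was 0.03 ± 0.13 (adjusted p = 0.842).

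The 1 Hist gene for H2A that passed the filter, Hist3h2a on chromosome 11, was not called in any comparison. It was at 0.564 to 0.811 CPM without oxaliplatin, 1.15 and 0.668 for Oxali, 0.611 and 0.773 for Combo200 and 0.482 and 0.431 for Combo2000. The libraries with oxaliplatin lay on both sides of those without, Oxali replicate 1 being the highest of all 12. Its log2 fold changes were 0.30 ± 0.35, 0.18 ± 0.36 and -0.69 ± 0.37.

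**Figure D3:**
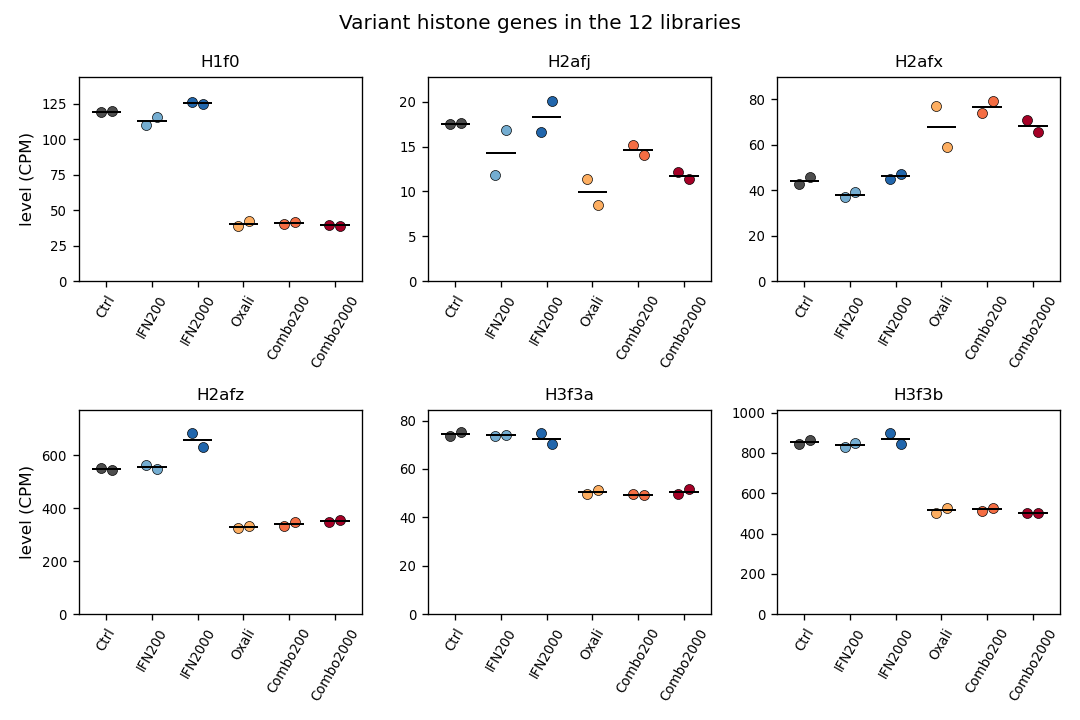
Level in CPM (y axis, from 0) of each variant gene in the 12 libraries, 2 points per group (x axis) with a line at the group mean. H1f0, H2afz, H3f3a and H3f3b are lower in all 6 libraries with oxaliplatin, H2afx is higher in all 6 (58.8 to 79.4 against 36.8 to 47.3 CPM), and the H2afj points overlap.

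Of the 4 H2B genes tested, Hist2h2be, on chromosome 3, was the most heavily read. No stretch of 50 bases of its transcript is shared with another gene, no stem-loop was found in it, and its annotated end has a poly(A) signal AATAAA. It was at 2.56 and 3.14 CPM in Ctrl, 2.99 and 2.83 for IFN200, 2.18 and 2.32 for IFN2000, 0.875 and 1.38 for Oxali, 1.26 and 0.966 for Combo200, and 0.926 and 0.991 for Combo2000. The log2 fold changes were -1.34 ± 0.25 (adjusted p = 7.54e-05), -1.39 ± 0.23 (adjusted p = 2.34e-05) and -1.23 ± 0.25 (adjusted p = 0.000183). Hist1h2bc was at 1.61 to 2.61 CPM without oxaliplatin and 0.991 to 1.35 CPM with it. These ranges did not overlap, and its log2 fold changes were -0.75 ± 0.27 (adjusted p = 0.0203), -0.66 ± 0.25 (adjusted p = 0.0274) and -1.18 ± 0.25 (adjusted p = 0.000309). The first call was lost with DESeq2 and without Ctrl replicate 1, Ctrl replicate 2 or Oxali replicate 2 (adjusted p up to 0.135), and the second with DESeq2, with the length and GC correction and without IFN200 replicate 2 or Combo200 replicate 2 (adjusted p up to 0.250).

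Hist1h2bh and Hist1h2be rest on few reads. Hist1h2bh had 10 to 18 counts in each library without oxaliplatin (0.446 to 0.781 CPM), and 6 and 2 counts in Oxali, 4 and 3 for Combo200, and 2 and 2 for Combo2000. Its fitted log2 fold changes were -1.61 ± 0.53 (adjusted p = 0.0115), -2.15 ± 0.51 (adjusted p = 0.000908) and -2.69 ± 0.60 (adjusted p = 0.000472). As a plain ratio of pooled counts, Combo2000 had 4 counts against 25, a ratio of 0.146 with an exact 95% interval of 0.0369 to 0.422 for counting error alone. Hist1h2be had 10 to 15 counts without oxaliplatin and 3 to 13 with it, and the sets overlapped through 1 Combo200 library at 0.502 CPM. It was called in Oxali against Ctrl (-1.42 ± 0.53, adjusted p = 0.0243), while its log2 fold changes in the other comparisons were -0.53 ± 0.48 (adjusted p = 0.333) and -1.02 ± 0.47 (adjusted p = 0.0587). In Oxali against Ctrl both genes lost their call with DESeq2 and without Ctrl replicate 1 or Oxali replicate 2, and Hist1h2be also without Ctrl replicate 2 (adjusted p up to 0.145 for Hist1h2bh and 0.207 for Hist1h2be).

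Both variants of H3 that were followed, H3f3a and H3f3b, encode the same replacement H3, which is laid down outside S phase. H3f3b was at 827 to 900 CPM in the libraries without oxaliplatin and at 504 and 526 for Oxali, 514 and 527 for Combo200 and 502 and 503 for Combo2000. H3f3a was at 70.2 to 75.3 CPM without, and at 49.7 and 51.2 for Oxali, 49.5 and 49.2 for Combo200 and 49.5 and 51.6 for Combo2000. Neither gene overlapped between libraries with and without oxaliplatin. The log2 fold changes of H3f3b were -0.73 ± 0.04 (adjusted p = 1.46e-12), -0.69 ± 0.04 (adjusted p = 2.87e-12) and -0.79 ± 0.04 (adjusted p = 2.56e-13), and those of H3f3a were -0.56 ± 0.05 (adjusted p = 1.93e-09), -0.58 ± 0.04 (adjusted p = 6.06e-10) and -0.52 ± 0.04 (adjusted p = 2.52e-09). H3f3aos and Gm17275 lie opposite H3f3a.

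Hist1h3g, an H3 gene with 68 counts in all, had 5 to 11 counts per library without oxaliplatin and 2 to 5 with it, and 54.1% of its 50-base stretches occur in other genes. It was called in Oxali against Ctrl (-1.89 ± 0.61, adjusted p = 0.0101) and in Combo2000 against IFN2000 (-1.68 ± 0.54, adjusted p = 0.00896), and was at -0.72 ± 0.63 (adjusted p = 0.327) in Combo200 against IFN200. In pooled counts the 3 comparisons stood at 5 against 17, 7 against 21 and 7 against 11, in that order, with ratios of 0.260 (95% interval 0.0750 to 0.734), 0.304 (0.109 to 0.742) and 0.596 (0.196 to 1.68). The call in Oxali against Ctrl was lost with DESeq2 and without Ctrl replicate 2 or Oxali replicate 1 (adjusted p up to 0.128), and that in Combo2000 against IFN2000 with DESeq2 and without Combo2000 replicate 3 (adjusted p up to 0.144).

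H4 has no variant gene in this set. Hist1h4i was at 1.11 and 1.57 CPM in Ctrl, 1.74 and 1.06 for IFN200, 1.24 and 1.70 for IFN2000, 0.691 and 0.716 for Oxali, 0.611 and 0.580 for Combo200, and 0.778 and 0.690 for Combo2000. All libraries with oxaliplatin were below all without. The log2 fold changes were -0.94 ± 0.34 (adjusted p = 0.0205), -1.23 ± 0.33 (adjusted p = 0.00246) and -0.99 ± 0.31 (adjusted p = 0.00749). The first was lost with DESeq2, with the length and GC correction and without Ctrl replicate 2 or either Oxali library (adjusted p up to 0.218). The second was lost without IFN200 replicate 1 (adjusted p = 0.0837), and the third with DESeq2 and without IFN2000 replicate 3 or Combo2000 replicate 3 (adjusted p up to 0.0847).

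**Figure D4:**
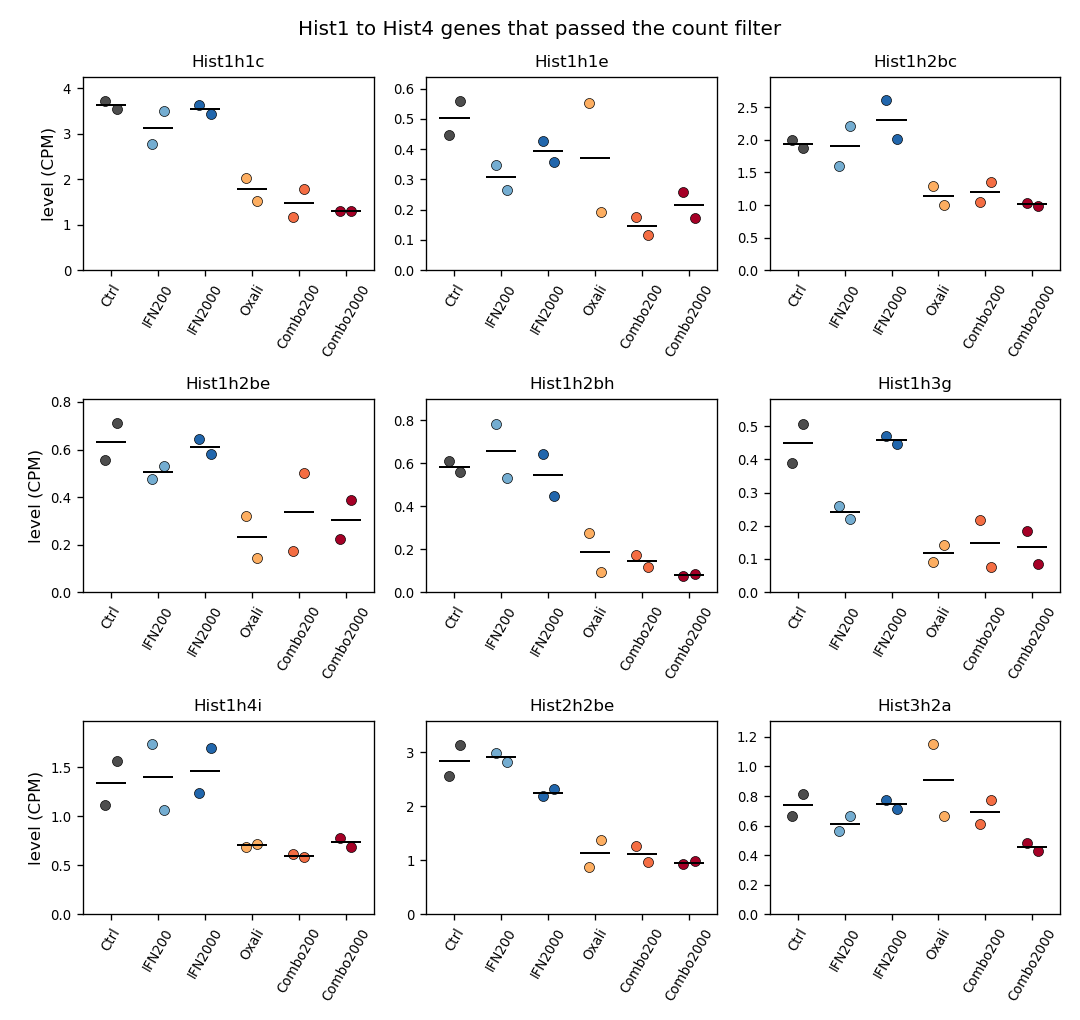
Level in CPM (y axis, from 0) of the 9 Hist genes that passed the filter, 2 points per group (x axis) with a line at the group mean. Hist1h1c, Hist1h2bc, Hist1h2bh, Hist1h3g, Hist1h4i and Hist2h2be are lower in all 6 libraries with oxaliplatin; in Hist1h1e and Hist3h2a 1 Oxali library, replicate 1, is the outlying point.

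Counted over the 12 libraries, 10 of the 15 tested members had every library with oxaliplatin below every library without, where 28.9% of all tested genes did. They were 4 variants and 6 Hist genes. Of these, Hist1h2bh and Hist1h3g had passed the filter only through libraries without oxaliplatin, so the count is no support for a direction. H2afj, Hist1h1e, Hist1h2be and Hist3h2a overlapped.

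One library needs separate mention. Oxali replicate 1 held Rn7sk, a small nuclear RNA with no poly(A) tail, at 40.9 CPM, against 2.82 to 7.19 CPM in the other 11 libraries. The other 19 RNAs of a list without poly(A) tails summed to 1.75 CPM there, above the 0.668 to 0.785 CPM of the other 5 libraries with oxaliplatin and within the 0.963 to 1.82 CPM of those without. The 61 Hist genes that failed the filter summed to 5.90 CPM in that library and 2.05 in Oxali replicate 2, 2.27 and 1.97 for Combo200, and 1.67 and 1.42 for Combo2000. Without oxaliplatin they summed to 4.84 and 4.66 in Ctrl, 2.78 and 3.89 for IFN200, and 5.82 and 4.33 for IFN2000. The sum was thus lower in 5 libraries with oxaliplatin than in all 6 without, and highest of all in Oxali replicate 1. Of the 28 untested Hist genes with 12 or more counts, 21 had a lower mean CPM with oxaliplatin, and 24 when Oxali replicate 1 was left out. In Oxali replicate 1, 7 had their highest level of all libraries. The same share among other untested genes was not taken, so these counts show nothing particular to Hist genes. The 9 tested Hist genes summed to 7.28 CPM in Oxali replicate 1. That was below the 11.5 to 13.3 CPM of the libraries without oxaliplatin and above the 5.13 to 6.26 CPM of the other 5 with it. Hist1h2be, Hist1h2bh and Hist1h3g are in this sum and passed the filter only through libraries without oxaliplatin, so part of the separation was fixed by the filter. The part of non-polyadenylated RNA in these values was not tested.

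By family, the summed Hist genes for H2B were at 6.07 to 7.40 CPM without oxaliplatin and 2.52 to 3.87 with it, and did not overlap. Those for H1 were at 3.52 to 4.90 and 1.57 to 3.55 CPM, and those for H4 at 2.21 to 3.30 and 1.03 to 2.90 CPM, both overlapping through Oxali replicate 1. The H2A sum (0.868 to 1.54 and 0.603 to 1.43 CPM) and the H3 sum (0.868 to 1.67 and 0.502 to 1.43 CPM) overlapped. Without Oxali replicate 1, Oxali against Ctrl called 5 of the 9 Hist genes lower in place of 7, losing Hist1h3g (adjusted p = 0.0895) and Hist1h4i (adjusted p = 0.0942). With 1 Oxali library left the filter let in more genes, and 2 further Hist genes were called, Hist2h4 lower (1 count against 9 and 5 in Ctrl) and Hist2h3c2 higher (9 counts against 1 and 1). Across the 12 fits that left out 1 library, 3 to 7 of the 9 were called lower in that comparison, with 4 without Ctrl replicate 1 and 3 without Ctrl replicate 2 or Oxali replicate 2, and all 6 variants were called in every one. DESeq2 called 2 of them lower, Hist1h1c and Hist2h2be, and all 6 variants.

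**Figure D5:**
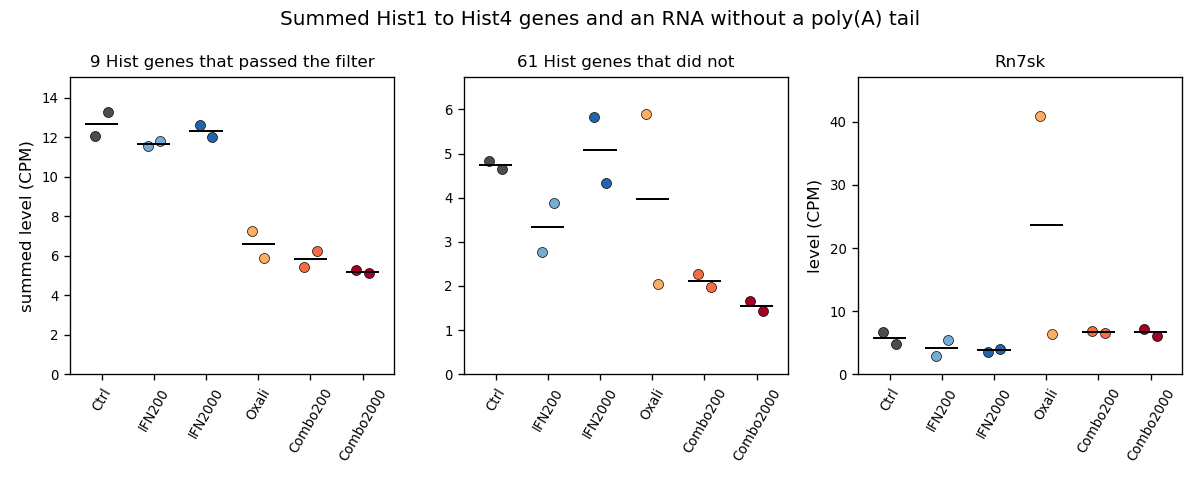
Summed level in CPM (y axis, from 0) of the 9 tested Hist genes, of the 61 untested ones, and the level of Rn7sk, 2 points per group (x axis) with a line at the group mean. The tested genes separate with and without oxaliplatin, though Hist1h2be, Hist1h2bh and Hist1h3g among them passed the filter only through libraries without it. The untested genes separate in all but Oxali replicate 1 (5.90 CPM), and Rn7sk is at 40.9 CPM in that library alone.

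IFNγ alone gave 1 called member at the higher amount and 0 at the lower. In IFN200 against Ctrl, where 0.114% of all genes were called, edgeR called 0 of the 15 members; 2 had an unadjusted p under 0.05 (H2afj at -0.30 ± 0.14 and H2afx at -0.22 ± 0.09) and DESeq2 called 0. In IFN2000 against Ctrl, where 16.9% of all genes were called, H2afz alone was called, 0.26 ± 0.04 higher (adjusted p = 0.000200), and DESeq2 called the same 1. Both IFN2000 libraries were above both Ctrl libraries. DESeq2 gave no adjusted p for any of the tested Hist genes in this comparison, so only the variants could be called by it. Outside the members, H2afv, the second H2A.Z gene, was called lower in this comparison (-0.20 ± 0.05, adjusted p = 0.0124), a call lost with DESeq2 and without Ctrl replicate 1, Ctrl replicate 2 or IFN2000 replicate 3 (adjusted p up to 0.151). Against Ctrl, shorter transcripts read higher in the IFN2000 libraries: Spearman's rho between the log2 ratio to Ctrl and transcript length, across genes, was -0.366 and -0.193. With a correction for length and GC content the H2afz change was 0.19, and without IFN2000 replicate 2 it was 0.21, both still called.

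Adding IFNγ to oxaliplatin gave no called member. Combo200 against Oxali, with 1.83% of all genes called, had 0 members called by edgeR and 0 by DESeq2, and 3 with an unadjusted p under 0.05: H2afj (0.55 ± 0.15, adjusted p = 0.0629), H2afx (0.18 ± 0.08) and Hist1h1e (-1.35 ± 0.60). Combo2000 against Oxali, with 4.36% of all genes called, had 0 by edgeR and 0 by DESeq2, and 2 unadjusted, H2afz (0.10 ± 0.04) and Hist3h2a (-0.99 ± 0.36). Whether the oxaliplatin change itself differed with IFNγ was tested as an interaction. At 200 pg, where 0.698% of all genes were called, and at 2000 pg, where 2.72% were, edgeR and DESeq2 each called 0 members. Of the tested Hist genes, DESeq2 gave an adjusted p at 200 pg only for Hist1h1c and Hist2h2be. At 2000 pg it did so only for these and Hist1h2bc. The unadjusted edgeR p was under 0.05 for H2afj (0.85 ± 0.20, adjusted p = 0.0551) and H2afx (0.39 ± 0.12, adjusted p = 0.211) at 200 pg and for H2afz (-0.16 ± 0.06, adjusted p = 0.132) at 2000 pg. Without Oxali replicate 1 both interactions at 200 pg were called (1.08 and 0.60), and without Oxali replicate 2 they had adjusted p of 0.484 and 0.718. The H2afj interaction was called in 7 of 20 alternatives, among them leaving out IFN200 replicate 2 or either IFN2000 library. H2afj in Combo200 against Oxali was called in 8 of 20, among them without Oxali replicate 1, without either IFN200 library and without either IFN2000 library. H2afx in that comparison was called without Oxali replicate 1, and the H2afz interaction without IFN2000 replicate 3. With no filter on low counts, 2 variants were called higher in Combo200 against Oxali and 2 in the interaction at 200 pg.

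Other genes of histone supply were read from 4 lists. Of 11 other histone variants, 4 were tested: macroH2A (H2afy) fell by 0.68 on the log2 scale in Oxali against Ctrl (SE 0.05, adjusted p = 4.92e-10), H1fx, a linker variant, fell by 1.01 (SE 0.22, adjusted p = 0.000443), Cenpa, the centromeric H3, fell by 0.27 (SE 0.04, adjusted p = 1.13e-05), and H2afv, a second H2A.Z gene, rose by 0.52 (SE 0.05, adjusted p = 1.21e-08). H2afv was at 44.5 to 53.6 CPM without oxaliplatin and 74.1 to 83.1 with it. Its direction was thus opposite to that of H2afz in the same 12 libraries. H1fx was at 1.67 and 1.70 CPM in Oxali against 2.94 and 3.89 in Ctrl, and its log2 fold change in Combo200 against IFN200 was -0.12 ± 0.21.

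Of the genes for histone mRNA synthesis and 3′ processing, 21 were tested, and 9 were called lower and 5 higher in Oxali against Ctrl, with a median of -0.04 against 0.02 for all genes, of which 32.8% were called lower and 34.8% higher. Slbp, which binds the stem-loop, rose by 0.14 (SE 0.04, adjusted p = 0.00604), from 101 and 102 CPM to 110 and 114 CPM. That call was lost without Ctrl replicate 1 or Oxali replicate 2 (adjusted p up to 0.0785), and Slbp was not called in Combo200 against IFN200 (adjusted p = 0.306) or Combo2000 against IFN2000 (adjusted p = 0.254). Npat, the coactivator of the clusters, was at -0.04 ± 0.06 (adjusted p = 0.518). The largest called changes were in Srrt (-0.65 ± 0.04) and Ncbp1 (-0.51 ± 0.04), which act with the cap-binding complex, Upf1 (-0.64 ± 0.04), a helicase of histone mRNA decay, and Zfp473 (0.48 ± 0.13), a partner of the U7 snRNP.

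Histone chaperones carry histones to and from DNA. All 23 of the list were tested, and 16 were called lower and 2 higher in Oxali against Ctrl, 16 and 3 in Combo200 against IFN200, and 15 and 2 in Combo2000 against IFN2000. Of all tested genes, 32.8%, 33.5% and 33.8% were called lower and 34.8%, 36.5% and 38.5% higher in these comparisons. Their median log2 fold changes were -0.24, -0.27 and -0.28. Nasp, which holds H1 and soluble H3 and H4, was at 259 and 275 CPM in Ctrl and 144 and 150 for Oxali (-0.86 ± 0.04, called). Npm1 (-0.72 ± 0.03), Anp32e (-0.71 ± 0.04), the chaperone that removes H2A.Z, and Rbbp7 (-0.63 ± 0.04), a histone-binding subunit of several complexes, also fell. Asf1b, which hands over H3 and H4 in S phase, was at -0.01 ± 0.05 (adjusted p = 0.889).

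DNA replication genes moved both ways. Of 21 tested, 10 were called lower and 7 higher in Oxali against Ctrl, where 32.8% of all genes were called lower and 34.8% higher, with a median of -0.10. Cdc45, a helicase factor, rose by 0.65 (SE 0.04), Pola1, of the primase complex, rose by 0.53 (SE 0.04), Ccna2, a cyclin of S and G2 phase, fell by 0.43 (SE 0.04) and Gins1, another helicase factor, fell by 0.36 (SE 0.08). The number of cells in S phase was not measured in these data.

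Marker lists were read once for cell identity and other cells. Of the prostate epithelium markers, Foxa1, Hoxb13 and Krt8 passed the filter, while Epcam had 0 counts in all libraries and Krt18, Cdh1 and Tmprss2 failed the filter. T cell genes appeared in IFN2000 replicate 2 (Cd4 33 counts, Cd3d 13, against at most 1 and 0 in every other library). So did Ptprc, kept in the macrophage list (64 counts, against at most 2 in every other library). Heart genes appeared in IFN200 replicate 1 (Actc1 63 counts, Myl2 22, against at most 2 and 1 elsewhere). The other lists shifted with oxaliplatin as follows. Of 9 T cell genes 2 were tested and 1 was called higher in Oxali against Ctrl, with a sum of 2.19 to 2.98 CPM with oxaliplatin and 0.353 to 0.955 without, apart from 6.94 in IFN2000 replicate 2; Cd8a was at 0. Of 9 heart genes 2 were tested and both were called higher, with 3.53 to 6.26 CPM against 0.835 to 1.27, apart from 10.3 in IFN200 replicate 1, and none was at 0 in all libraries. Of 7 macrophage genes 2 were tested and 1 was called higher, with 1.67 to 2.36 CPM against 0.612 to 1.37, apart from 3.73 in IFN2000 replicate 2, and Adgre1 and Itgam were at 0. Of 8 fibroblast genes 2 were tested and 1 was called higher, with 32.8 to 40.5 CPM against 23.3 to 29.9, and Lum was at 0. Their part in the histone values was not tested. Leaving out IFN2000 replicate 2 or IFN200 replicate 1 left 1 library in that group and let more Hist genes through the filter. Calls from those fits are therefore not compared with the main ones here.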

How the data were processed

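RNA-seq was made from poly(A)-selected, stranded libraries of 100 ng total RNA. The authors aligned reads to GRCm38 with STAR v2.7.3a, using GENCODE vM12, and counted genes with featureCounts v2.0.0; the submitters' processing notes also name RSEM 1.3.0. The deposited table holds the authors' raw counts per gene, not normalized. The strand setting and the treatment of reads that match several genes are not given in the sources used here.

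Counts were tested as deposited with edgeR 4.0.16 (R 4.3.3), with TMM factors, filterByExpr (minimum count 10, minimum total 15), and 1 quasi-likelihood model of 6 group means over 12 libraries. CPM uses the TMM-scaled library total. Calls needed a Benjamini-Hochberg adjusted p under 0.05 over all 13177 genes. DESeq2 1.42.0, which the authors used, other scalings, filters, a length and GC correction, a replicate block and leaving out each library were alternatives. The script was tested on simulated counts. Precision is set by the 18749975 to 25931516 counts per library; intervals and floors (3 counts) cover counting error only.

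The members and gene lists were chosen with earlier results of these data known; the context and marker lists hold genes of known function. Named were all variants, the tested Hist genes, Slbp, Npat, Cenpa and Asf1b, up to 4 called genes of largest change from each context list, and members with transcripts annotated past the stem-loop; Hist1h4d, Hist2h4, Hist2h3c2 and single marker genes, Rn7sk included, were named after their values were seen. 2 of the 23 listed processing genes were not found by symbol. Gene models and stem-loops come from GENCODE M21, and promoters from RefSeq on GRCm38.p6, where 75 of 76 members matched and 66 had a promoter. Proteins were not used here, and some marker genes are not reported here.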

Additional observations from a re-analysis of the deposited data

How the results depend on the processing

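The number of members called, 13, 10 and 12 in Oxali against Ctrl, Combo200 against IFN200 and Combo2000 against IFN2000, was 8 in the first with DESeq2 and 7, 6 and 7 with a filter at a mean of 50 counts, which leaves 7 members to test; with no filter, the third had 17 (11 Hist genes lower in place of 6). Leaving out single libraries gave 9 to 13, 9 to 10 and 10 to 14. These fits tested 12 to 15 Hist genes in place of 9, so their counts of calls are not over the same genes. IFN2000 against Ctrl had 1 and IFN200 against Ctrl 0 under every alternative run. Combo200 against Oxali and the interaction at 200 pg went from 0 to 2 with no filter, 1 with only the groups compared, 1 with the length and GC correction, and 0 to 2 with single libraries left out. Combo2000 against Oxali and the interaction at 2000 pg gave 0 to 1 with single libraries left out. The cause of these moves was not tested. No called member changed direction. The summed Hist level of Combo2000 was 7.01 CPM in place of 6.74 without TMM factors. Members with every oxaliplatin library below all others, 10, became 11 without Oxali replicate 1 and 10 without IFN2000 replicate 2, chosen after seeing the data.

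Same-numbered libraries did not deviate together (correlations of -0.046 to 0.045 over 21 pairs). With 2 libraries per group, groups that share both numbers give the same value for each, so not all 21 are separate. Whether same-numbered libraries shared a culture or batch was not tested. With the replicate block, 13, 9 and 12 members were called in the 3 oxaliplatin comparisons, 1 in IFN2000 against Ctrl and 0 in the others. The block lost Hist1h2bc in Combo200 against IFN200 and H2afv in IFN2000 against Ctrl. Of the 70 Hist genes, 61 had too few counts to test at this depth; the cause of their low counts was not tested.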
